A study of Mus musculus with 32 samples.

Results

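The hepcidin genes Hamp and Hamp2, the iron exporter Slc40a1 (ferroportin) and 6 genes of iron uptake, storage and sensing (Tfrc, Slc39a14, Slc11a2, Fth1, Ireb2 and Aco1) were followed through the atria of 16 mice. These 9 genes, of 19938 named genes on the array and 15219 tested, were chosen by their function in iron handling, with earlier results known in which the log2 signals of these arrays differed between Bmp10-high and Bmp10-low atria and between genotypes. Each is read by 1 probe set carrying its symbol alone, and all 9 passed the filter on low signal. The left and right atrium of each animal were hybridised separately to Affymetrix Mouse Gene 1.0 ST arrays, giving 32 arrays. Each genotype had 4 animals: mice transgenic for the kinase Mst1, mice transgenic for a dominant negative form of phosphoinositide 3-kinase (dnPI3K), double transgenic mice (dnPI3K-Mst1), and non-transgenic mice (Ntg). All 4 groups shared a mixed C57BL/6 and FVB/N background and a standard chow diet, and their age and the promoter of each transgene are not given in the sources used here. All levels below are deposited log2 signals of a probe set, which may be compared between arrays but not between genes.

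Hepcidin is a peptide hormone, made chiefly by the liver, that binds ferroportin and has it degraded, so that iron stays inside the cell. Its transcription is known to be driven by bone morphogenetic proteins (BMPs) through SMAD factors, with hemojuvelin (Hjv) as a co-receptor, and by interleukin 6 through STAT3. Heart muscle cells also make hepcidin and ferroportin, which there set how much iron the myocyte keeps. Transferrin receptor brings iron in, ferritin stores it, and the iron regulatory proteins encoded by Aco1 and Ireb2 bind iron-responsive elements in the transcripts of both.

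Hamp and Hamp2 are neighbouring paralogues on mouse chromosome 7, and their promoters are printed because the hepcidin genes carry the largest differences described below. Both windows hold the 250 bases upstream of the annotated start, on the minus strand of GRCm38.p6 as given by RefSeq. Capitals mark GGCGCC, the core of the BMP-responsive element known from hepcidin promoters, and TTCNNNGAA, a STAT motif, which both read the same on either strand and do not overlap here.
Hamp, chr7:30944030-30944279: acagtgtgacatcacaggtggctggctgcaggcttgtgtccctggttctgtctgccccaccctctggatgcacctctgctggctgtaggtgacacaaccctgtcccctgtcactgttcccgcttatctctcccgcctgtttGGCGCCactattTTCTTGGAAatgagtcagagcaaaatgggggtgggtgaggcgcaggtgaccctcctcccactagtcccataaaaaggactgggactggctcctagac
Hamp2, chr7:30924182-30924431: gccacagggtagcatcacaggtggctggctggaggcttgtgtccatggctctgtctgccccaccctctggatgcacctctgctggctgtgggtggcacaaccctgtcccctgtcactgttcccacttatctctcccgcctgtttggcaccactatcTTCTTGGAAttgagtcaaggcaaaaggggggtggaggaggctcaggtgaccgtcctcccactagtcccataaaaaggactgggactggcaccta
The windows were 89.7% identical over 253 aligned columns, with 20 substitutions and 6 gap columns. Hamp held GGCGCC at bases 142 to 147 of its window, starting 109 bases before the start site. The aligned bases of Hamp2 did not hold it, the difference being G145A, with Hamp given first and positions counted from 1 at the 5′ end of the Hamp window. The letters TTCTTGGAA were found in both, at bases 154 to 162 in Hamp and 157 to 165 in Hamp2. Among 32851 promoter windows of this length 9.59% held GGCGCC and 7.02% held TTCNNNGAA, and a match is a description of letters only. RefSeq windows were at hand for 6 of the 9 genes, and of the other four only Tfrc held 1 of these motifs, GGCGCC. Probe sets of such similar transcripts may cross-hybridise, so the values of Hamp2 are uncertain where they follow those of Hamp.

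The atrial signal was checked first. Nppa, the atrial natriuretic peptide, lay between 13.16 and 13.56 on all 32 arrays and the atrial light chain Myl7 between 11.93 and 12.70. Bmp10, a BMP ligand known as a gene of the right atrium in mice, divided the arrays at the chosen limit of 9 into 16 high arrays, the dimmest at 11.42, and 16 low arrays, the brightest at 6.64. Every animal had 1 Bmp10-high and 1 Bmp10-low array. The division did not follow the labelled side: 13 of the 16 Bmp10-high arrays are labelled left and 3 right. In dnPI3K and dnPI3K-Mst1 all 8 Bmp10-high arrays are labelled left, in Mst1 3 left and 1 right, and in Ntg 2 left and 2 right. Sides are therefore described by Bmp10, and differences between the classes are given as values with no test, since a measured gene made the classes. The array labelled left of Mst1 1466 stood farthest from the others, with a mean correlation of 0.949 over all probe sets. Stk4, the gene of Mst1, averaged 8.25 ± 0.10 in Mst1, 7.61 ± 0.13 in dnPI3K, 8.33 ± 0.11 in dnPI3K-Mst1 and 7.54 ± 0.11 in Ntg (SD, n = 4 animals each), which follows the labels. Pik3ca, the gene of a catalytic subunit of phosphoinositide 3-kinase, averaged 9.73 ± 0.30 in Mst1, 10.04 ± 0.09 in dnPI3K, 10.27 ± 0.13 in dnPI3K-Mst1 and 9.11 ± 0.25 in Ntg. All dnPI3K and dnPI3K-Mst1 animals lay above Ntg, but Mst1 animals (9.28 to 9.95) overlapped both Ntg (up to 9.37) and dnPI3K (from 9.90). Whether this probe set reads the transgene is not given in the sources used here, so it does not check the dnPI3K labels by itself.

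Hamp was the member with the largest spread, from 5.84 to 11.12 over 32 arrays. In Bmp10-high arrays it read 8.06, 8.36, 8.07 and 8.29 in Mst1, 8.92, 10.66, 10.02 and 10.42 in dnPI3K, 8.86, 9.09, 8.98 and 9.56 in dnPI3K-Mst1, and 10.45, 10.50, 11.12 and 11.02 in Ntg. All 4 Mst1 and all 4 dnPI3K-Mst1 values lay below the lowest Ntg value, while the dnPI3K values overlapped those of Ntg. In Bmp10-low arrays it read 7.85, 7.18, 6.12 and 7.47 in Mst1, 7.01, 7.45, 7.55 and 8.32 in dnPI3K, 8.53, 7.77, 9.23 and 8.99 in dnPI3K-Mst1, and 7.00, 6.71, 6.08 and 5.84 in Ntg. Here Ntg had the lowest group mean instead of the highest, and every dnPI3K-Mst1 value lay well above the highest Ntg value. Every dnPI3K value lay above it as well, but only just for the nearest pair, at 7.01 in dnPI3K and 7.00 in Ntg. Mst1 overlapped Ntg.

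**Figure D1:**
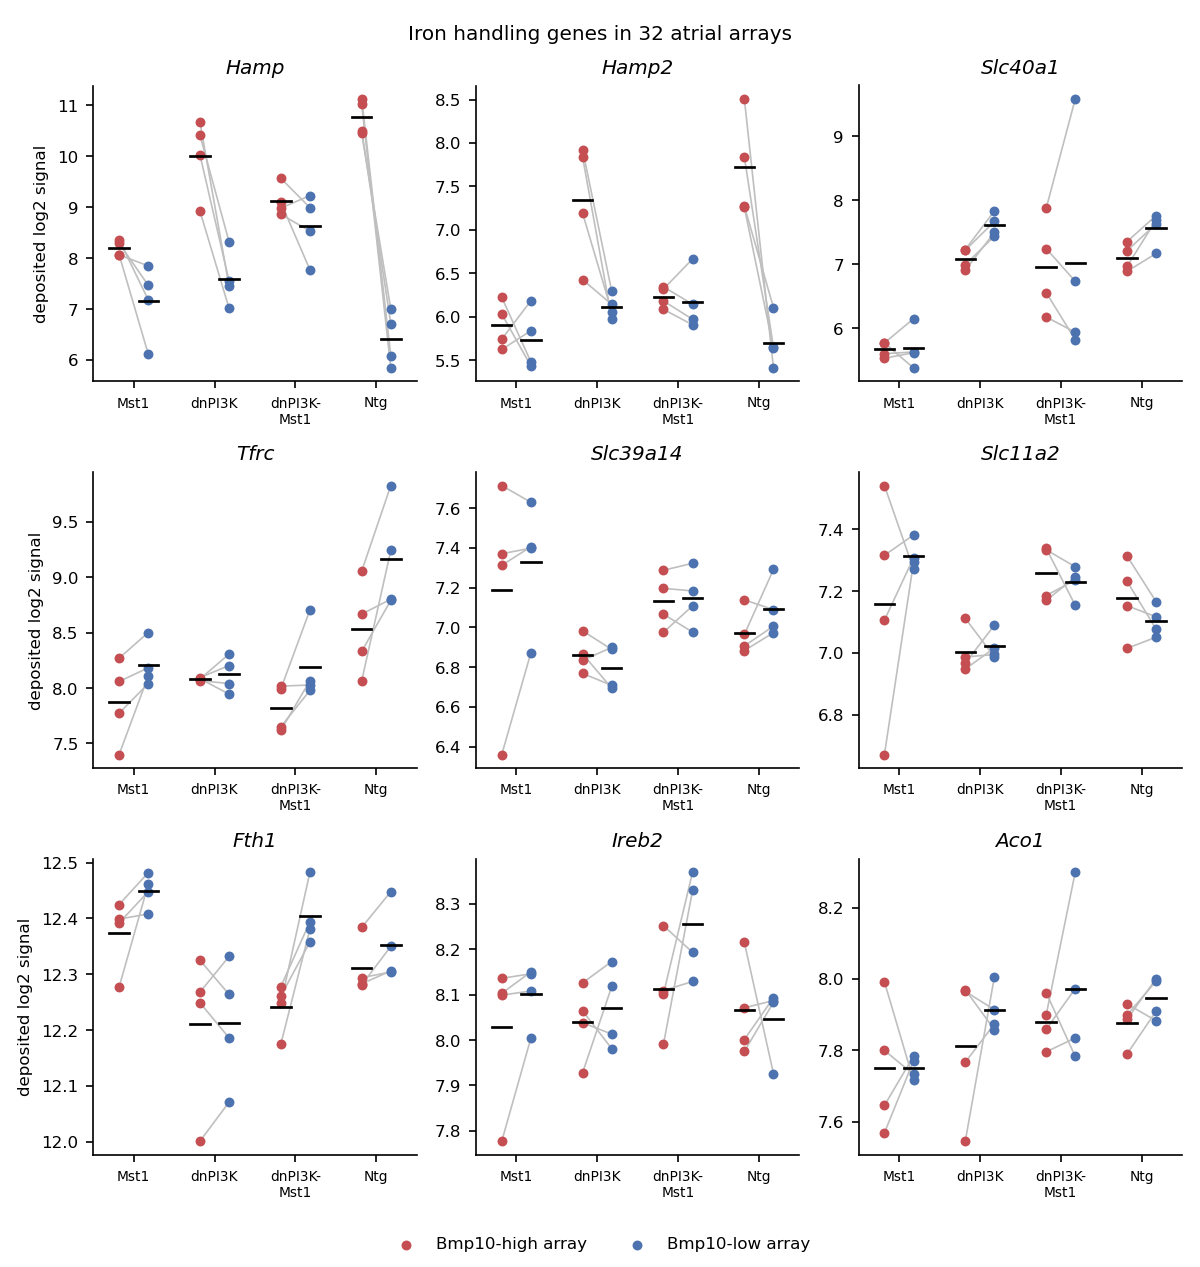
Deposited log2 signal of the 9 iron genes (y axis, a separate scale per gene) by genotype (x axis). Red points are Bmp10-high arrays, blue points Bmp10-low arrays, a grey line joins the arrays of 1 animal and a black bar is the mean of 4 arrays. Hamp in Ntg lies between 10.45 and 11.12 on Bmp10-high arrays and between 5.84 and 7.00 on Bmp10-low arrays, while in dnPI3K-Mst1 the 2 classes overlap.

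Genotypes were compared with limma, and p-values were adjusted by Benjamini-Hochberg over all 15219 genes. In Bmp10-high arrays Hamp fell by 2.58 ± 0.26 in Mst1 against Ntg (log2 difference ± SE, limma adjusted p = 4.07e-07) and fell by 1.65 ± 0.26 in dnPI3K-Mst1 against Ntg (limma adjusted p = 8.11e-05). In dnPI3K against Ntg the difference was -0.77 ± 0.26 and was not called (limma adjusted p = 0.201). Set against dnPI3K, the double transgenic arrays were at -0.88 in Hamp, which passed (limma adjusted p = 0.0264), and set against Mst1 they stood 0.93 higher, which did not (limma adjusted p = 0.111). The order of the mean levels in this class was thus Mst1 (8.20 ± 0.15), dnPI3K-Mst1 (9.12 ± 0.31), dnPI3K (10.01 ± 0.77) and Ntg (10.77 ± 0.35) from low to high (SD, n = 4 each), and of its 3 neighbouring steps only the middle one was called. By group medians, Hamp and markers of ventricular muscle stood in the same order on Bmp10-high arrays. The mean of 5 such genes had a median of 5.46 in Mst1, 5.77 in dnPI3K, 5.67 in dnPI3K-Mst1 and 5.91 in Ntg on Bmp10-high arrays. By the average of the 4 arrays instead, dnPI3K stood above Ntg. The ranges overlapped, at 5.59 to 7.26 in dnPI3K, 5.63 to 5.78 in dnPI3K-Mst1 and 5.69 to 6.39 in Ntg. Medians of atrial myocyte and of skeletal muscle markers stood in the order of Hamp on Bmp10-high arrays as well. On Bmp10-low arrays ventricular medians kept that order, at 5.357 in Mst1, 5.388 in dnPI3K-Mst1, 5.602 in dnPI3K and 5.744 in Ntg. Hamp did not follow it there, with its highest median in dnPI3K-Mst1 and its lowest in Ntg. The mean of the 5 ventricular genes was highest, at 7.26, on the array of dnPI3K 1648 that holds the brightest Hamp value of its genotype. The ventricular light chain Myl2 stood there at 10.70 against a median of 5.21 over 32 arrays. Of these 5 genes 0 were higher and 1 lower in Mst1 against Ntg on Bmp10-high arrays, and 0 were called in dnPI3K and in dnPI3K-Mst1. Their mean correlated with Hamp at 0.41 and with Hamp2 at 0.53 over 32 arrays, and the part of ventricular tissue in the hepcidin values was not tested. The p-values rest on the variation among the animals sampled, whose small number limits the precision.

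In Bmp10-low arrays Hamp rose in dnPI3K-Mst1 by 2.22 ± 0.36 against Ntg (limma adjusted p = 0.000126) and by 1.48 ± 0.36 against Mst1 (limma adjusted p = 0.0387). Differences from Ntg of 1.17 ± 0.36 in dnPI3K (limma adjusted p = 0.0802) and 0.75 ± 0.36 in Mst1 (limma adjusted p = 0.148) were not called. The mean levels ran from 8.63 ± 0.64 in dnPI3K-Mst1 through 7.58 ± 0.54 in dnPI3K and 7.15 ± 0.74 in Mst1 to 6.41 ± 0.54 in Ntg (SD, n = 4 each). Of the neighbours in that order, dnPI3K-Mst1 against dnPI3K (1.05 ± 0.36, limma adjusted p = 0.0546) and Mst1 against Ntg were not called, and dnPI3K was not compared with Mst1. An average over both atria hides this crossing. In the fit on each animal's mean Hamp fell by 0.92 ± 0.24 in Mst1 against Ntg (limma adjusted p = 0.00648), but was at 0.29 ± 0.24 in dnPI3K-Mst1 (limma adjusted p = 0.405) and 0.20 ± 0.24 in dnPI3K (limma adjusted p = 0.737). It rose by 1.20 ± 0.24 in dnPI3K-Mst1 against Mst1 (limma adjusted p = 0.00744). With single arrays, Bmp10 class as a covariate and the animal as a random block, neither of these 2 calls was made (limma adjusted p = 0.17 against Ntg and 0.16 against Mst1).

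The within-animal difference, Bmp10-high minus Bmp10-low, puts both arrays into 1 number per animal. For Hamp it was 0.22, 1.18, 1.95 and 0.83 in Mst1, 1.91, 3.22, 2.47 and 2.10 in dnPI3K, 0.33, 1.32, -0.24 and 0.57 in dnPI3K-Mst1, and 3.45, 3.79, 5.04 and 5.18 in Ntg. Every transgenic animal had a smaller difference than every Ntg animal, and the Bmp10-high array was the higher one in 15 of 16 animals. The difference fell by 3.32 ± 0.39 in Mst1 (limma adjusted p = 2.57e-05) and fell by 3.87 ± 0.39 in dnPI3K-Mst1 against Ntg (limma adjusted p = 7.45e-06). For dnPI3K it fell by 1.94 ± 0.39 (limma adjusted p = 0.0487), a call that was lost in 16 of 24 alternatives, among them leaving out Ntg 1662 (-1.72, limma adjusted p = 0.164), dnPI3K 3241 (-1.83, limma adjusted p = 0.142), Ntg 1834 (-1.67, limma adjusted p = 0.134) or dnPI3K 1507 (-1.77, limma adjusted p = 0.134). These 3 comparisons share the Ntg animals.

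**Figure D2:**
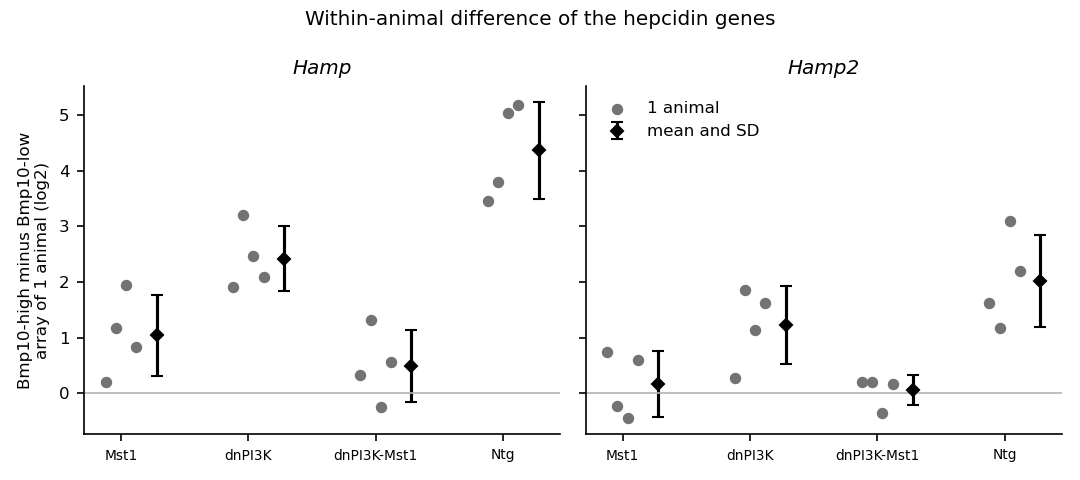
Difference between the Bmp10-high and the Bmp10-low array of each animal (y axis, log2) for Hamp and Hamp2 in the 4 genotypes (x axis). Each grey point is 1 animal, and the diamond with its bar is the mean and SD of 4 animals. The Ntg mean is 4.37 for Hamp and 2.02 for Hamp2, the dnPI3K-Mst1 mean 0.50 and 0.06.

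Hamp2 read 6.22, 5.62, 5.74 and 6.03 in Mst1, 6.43, 7.84, 7.19 and 7.92 in dnPI3K, 6.34, 6.18, 6.32 and 6.08 in dnPI3K-Mst1, and 7.26, 7.27, 8.51 and 7.84 in Ntg on Bmp10-high arrays. The Mst1 and dnPI3K-Mst1 arrays all lay below the lowest Ntg array, as for Hamp. On Bmp10-low arrays its means were 5.73 ± 0.35 in Mst1, 6.12 ± 0.14 in dnPI3K, 6.17 ± 0.34 in dnPI3K-Mst1 and 5.70 ± 0.29 in Ntg (SD, n = 4 each). In the Bmp10-high class Hamp2 fell by 1.82 ± 0.27 in Mst1 (limma adjusted p = 4.92e-05) and fell by 1.49 ± 0.27 in dnPI3K-Mst1 (limma adjusted p = 0.000383) against Ntg, and fell by 1.11 ± 0.27 in dnPI3K-Mst1 against dnPI3K (limma adjusted p = 0.00724). In the Bmp10-low class it was called in no comparison with Ntg, the nearest being dnPI3K-Mst1 at 0.47 ± 0.18 (limma adjusted p = 0.056). Its within-animal difference fell by 1.85 ± 0.35 in Mst1 (limma adjusted p = 0.00538) and fell by 1.96 ± 0.35 in dnPI3K-Mst1 (limma adjusted p = 0.00324), and was at -0.79 ± 0.35 in dnPI3K (limma adjusted p = 0.515). On the animals' means Hamp2 fell by 0.89 ± 0.15 in Mst1 against Ntg (limma adjusted p = 0.000106), fell by 0.51 ± 0.15 in dnPI3K-Mst1 against Ntg (limma adjusted p = 0.0116) and fell by 0.53 ± 0.15 in dnPI3K-Mst1 against dnPI3K (limma adjusted p = 0.0126). The last of these was not called without dnPI3K 3241 (-0.40, limma adjusted p = 0.0587). With single arrays, Bmp10 class as a covariate and the animal as a random block, both dnPI3K-Mst1 calls were lost (limma adjusted p = 0.197 against Ntg and 0.205 against dnPI3K).

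Hamp and Hamp2 had a Pearson correlation of 0.83 over 32 arrays, 0.93 within the 16 Bmp10-high arrays and 0.47 within the 16 Bmp10-low arrays. These points share arrays, animals and possibly hybridised transcript, and the coefficients are a description. Hamp and Bmp10 correlated at 0.69 over all arrays, which holds the division itself, and at 0.23 within Bmp10-high and -0.50 within Bmp10-low arrays.

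Of the 9 members, 4 were called in Mst1 against Ntg on Bmp10-high arrays (Hamp, Hamp2, Slc40a1 and Tfrc), where 14.8% of all genes were called. In dnPI3K none of 9 was called (0.966% of all genes), with Hamp and Tfrc under an unadjusted p of 0.05, and in dnPI3K-Mst1 3 were (Hamp, Hamp2 and Tfrc, against 16.6%). On Bmp10-low arrays the calls against Ntg were Slc40a1, Tfrc and Slc11a2 in Mst1 (26.9% of all genes), Tfrc in dnPI3K (3.78%), and Hamp and Tfrc in dnPI3K-Mst1 (29.8%). Double transgenic arrays against Mst1 gave 1 call in each class, Slc40a1 on Bmp10-high arrays (0.907%) and Hamp on Bmp10-low arrays (2.54%). Against dnPI3K they gave Hamp and Hamp2 on Bmp10-high arrays (13%) and Slc11a2 on Bmp10-low arrays (17.4%). Since the 9 genes were picked with results known, these counts describe them and were not tested against the background.

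**Figure D3:**
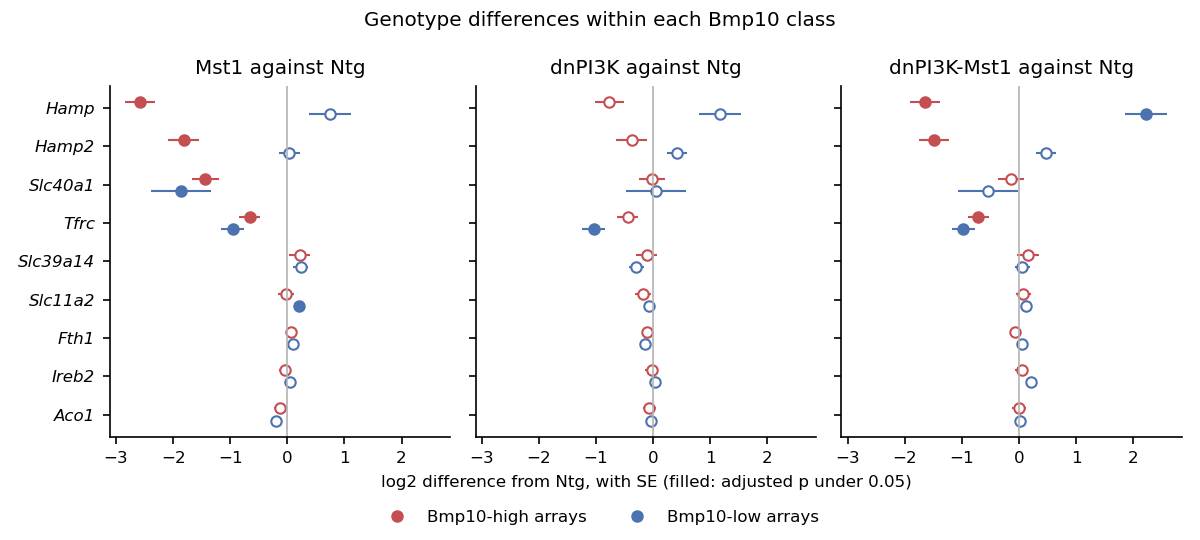
Log2 difference from Ntg with its SE (x axis) of the 9 genes (y axis) in Mst1, dnPI3K and dnPI3K-Mst1, from fits on Bmp10-high arrays (red) and Bmp10-low arrays (blue), 4 arrays a group. Filled points have an adjusted p under 0.05. Hamp in dnPI3K-Mst1 lies at -1.65 in the red and 2.22 in the blue fit.

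On the animals' means 4 of 9 members were called in Mst1 against Ntg (26.8% of all genes), 1 in dnPI3K (4.05%) and 2 in dnPI3K-Mst1 (30.6%). Between dnPI3K-Mst1 and Mst1 there were 2 (3.5%) and between dnPI3K-Mst1 and dnPI3K 1 (21.6%). For the non-additivity term, the part of the double transgenic difference from Ntg that the sum of the single ones leaves over, limma called 0 of 9 members and 0.513% of all genes. At an unadjusted p under 0.05 it held Hamp (1.00 ± 0.34), Slc40a1 (1.29 ± 0.51) and Tfrc (0.71 ± 0.23). For the within-animal difference the numbers of members called were 2 in Mst1 (1.17% of all genes), 1 in dnPI3K (0.125%) and 2 in dnPI3K-Mst1 (0.999%). The labelled side, right minus left, gave 0 of 9, with 0.00657% of all genes called, no member under an unadjusted p of 0.05, and Hamp at -0.78 ± 0.54 (limma adjusted p = 0.81).

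Set side by side without a test, the Bmp10-high and Bmp10-low arrays of a genotype did not overlap for Hamp in Mst1 (6.35% of all genes did not overlap), for Hamp, Hamp2 and Slc40a1 in dnPI3K (6.62%), for Fth1 in dnPI3K-Mst1 (3.82%) and for Hamp and Hamp2 in Ntg (7.49%). Hamp and Hamp2 were higher on the Bmp10-high arrays in these cases, and Slc40a1 and Fth1 lower. Over the 4 genotypes together no member separated, as was true of all but 0.0657% of genes. Within animals Tfrc and Fth1 were lower on the Bmp10-high array in 14 of 16, Slc40a1 and Ireb2 in 12 of 16, and Hamp2 was higher in 13 of 16. Over all genes 1.16% went the same way in all 16 animals, which no member did. The share of all genes at the lower counts of these members was not computed, so the counts stand without a background.

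Slc40a1 encodes ferroportin, the only iron exporter known in mammals and the target of hepcidin. On Bmp10-high arrays it read 5.77, 5.78, 5.54 and 5.61 in Mst1, 7.00, 6.91, 7.22 and 7.23 in dnPI3K, 7.25, 7.87, 6.56 and 6.18 in dnPI3K-Mst1, and 7.35, 6.89, 7.21 and 6.97 in Ntg. On Bmp10-low arrays it read 6.15, 5.38, 5.62 and 5.63 in Mst1, 7.44, 7.50, 7.67 and 7.83 in dnPI3K, 6.74, 9.58, 5.82 and 5.94 in dnPI3K-Mst1, and 7.76, 7.17, 7.63 and 7.69 in Ntg. Mst1 lay below both dnPI3K and Ntg in every array of either class, dnPI3K and Ntg overlapped, and dnPI3K-Mst1 ran from within the Mst1 range to the highest value of all 32 arrays.

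Slc40a1 fell by 1.65 ± 0.36 in Mst1 against Ntg on the animals' means, a 3.14-fold lower signal (limma adjusted p = 0.00164). It fell by 1.43 ± 0.23 on Bmp10-high arrays (limma adjusted p = 0.000131) and fell by 1.87 ± 0.53 on Bmp10-low arrays (limma adjusted p = 0.0123). In dnPI3K it was at 0.01 ± 0.36 (limma adjusted p = 0.991). The double transgenic group depended on 1 animal, dnPI3K-Mst1 1647, which holds both of its highest arrays. With it Slc40a1 was at -0.34 ± 0.36 against Ntg (limma adjusted p = 0.523), and without it the gene fell by 0.92 (limma adjusted p = 0.00064). Against dnPI3K it was at -0.36 ± 0.36 with that animal (limma adjusted p = 0.527), and without it the gene fell by 0.94 (limma adjusted p = 0.000919). The within-animal difference was 0.40 ± 0.33 above that of Ntg (limma adjusted p = 0.83), and rose by 0.95 without it (limma adjusted p = 0.00457). Against Mst1 it rose by 1.31 ± 0.36 (limma adjusted p = 0.04996), or by 0.73 without that animal (limma adjusted p = 0.0426), and the call was lost in 21 of 29 alternatives. On Bmp10-high arrays alone it rose by 1.29 ± 0.23 against Mst1 (limma adjusted p = 0.00559).

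Macrophages also make ferroportin to recycle iron from red cells, and endothelial cells carry it too, so their markers are given beside these values. The Bmp10-low array of dnPI3K-Mst1 1647 had the highest mean of 15 macrophage and monocyte markers among the 32 arrays, 8.40, against 7.26, 7.31 and 7.65 on the other Bmp10-low arrays of its genotype. Ccr2, a receptor of recruited monocytes, was at 7.73 there against a median of 4.87 over 32 arrays, and Ms4a7 at 7.73 against 4.98. Of 15 tested markers of these cells 0 were higher and 2 lower in Mst1 against Ntg, and 6 were higher and 1 lower in dnPI3K-Mst1, where 16.4% of all genes were higher and 14.2% lower. Of 8 endothelial markers 5 were lower in Mst1 against Ntg, as were 14.2% of all genes. In dnPI3K-Mst1 against Mst1 4 of the 8 were higher, beside 2.65% of all genes higher and 0.848% lower. Slc40a1 correlated with the macrophage mean at 0.50 over 32 arrays and at 0.28 without that array, and with the endothelial mean at 0.66 and 0.70. The part of these cells in the Slc40a1 differences was not tested, and in whole atria fewer cells of a type and less RNA per cell cannot be told apart.

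**Figure D4:**
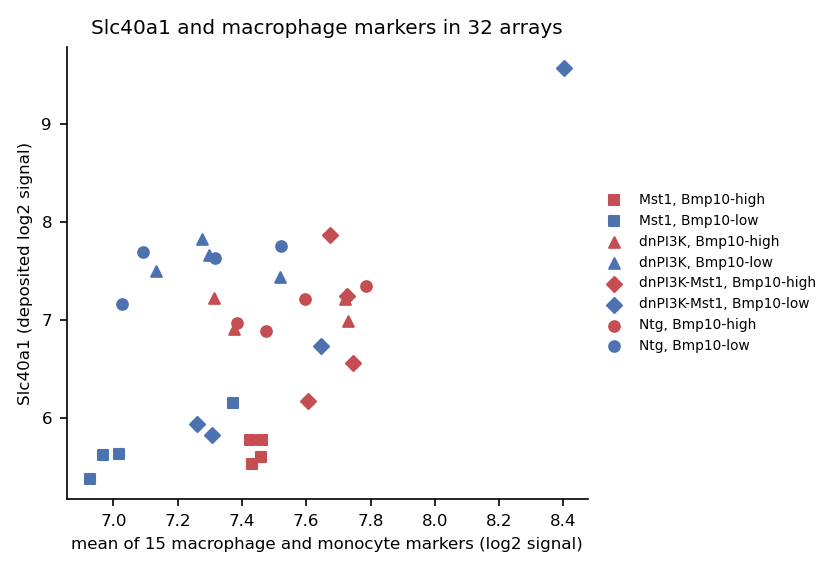
Slc40a1 log2 signal (y axis) against the mean log2 signal of 15 macrophage and monocyte markers (x axis), 1 point per array, with shapes for genotypes and colours for Bmp10 class. The array at 8.40 and 9.58 is the Bmp10-low array of dnPI3K-Mst1 1647. Mst1 arrays lie between 5.38 and 6.15 on the y axis.

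Tfrc, the transferrin receptor that carries iron into the cell, was lower in all 3 transgenic groups. The animals' means were 8.04 ± 0.27 in Mst1, 8.10 ± 0.08 in dnPI3K, 8.01 ± 0.25 in dnPI3K-Mst1 and 8.85 ± 0.40 in Ntg (SD, n = 4 each). On Bmp10-low arrays it read 8.11, 8.04, 8.50 and 8.18 in Mst1, 8.20, 7.95, 8.04 and 8.31 in dnPI3K, 7.98, 8.07, 8.03 and 8.71 in dnPI3K-Mst1, and 8.79, 9.83, 9.24 and 8.80 in Ntg. No transgenic array of this class reached the lowest Ntg array. It fell by 0.81 ± 0.17 in Mst1 (limma adjusted p = 0.000936), fell by 0.74 ± 0.17 in dnPI3K (limma adjusted p = 0.0133) and fell by 0.84 ± 0.17 in dnPI3K-Mst1 (limma adjusted p = 0.000566) against Ntg. These are 1.75-fold, 1.68-fold and 1.79-fold lower signals, set against the same Ntg animals.

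The fall of Tfrc was seen in both classes of array for Mst1 and dnPI3K-Mst1. On Bmp10-high arrays, where Ntg read 8.33, 9.06, 8.07 and 8.67, it fell by 0.65 ± 0.18 in Mst1 (limma adjusted p = 0.0182) and fell by 0.71 ± 0.18 in dnPI3K-Mst1 (limma adjusted p = 0.00933). In dnPI3K, whose 4 arrays of this class read between 8.07 and 8.10, the difference was -0.45 ± 0.18 (limma adjusted p = 0.32), and the call rests on the Bmp10-low arrays, at -1.04 ± 0.20 (limma adjusted p = 0.00474). The dnPI3K call was also lost without the animals whose arrays stand apart, at -0.88 (limma adjusted p = 0.0562). The 3 transgenic groups differed little among themselves: dnPI3K-Mst1 was at -0.03 ± 0.17 against Mst1 and at -0.10 ± 0.17 against dnPI3K (limma adjusted p = 0.96 and 0.727).

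The other 2 importers varied less. Slc39a14, the ZIP14 carrier of iron not bound to transferrin, ran from 6.36 to 7.71 over 32 arrays and Slc11a2, the DMT1 carrier that moves iron out of endosomes, from 6.67 to 7.54. Both lowest values come from the same array, the Bmp10-high array of Mst1 1466. Slc39a14 averaged 7.26 ± 0.45 in Mst1, 6.83 ± 0.09 in dnPI3K, 7.14 ± 0.13 in dnPI3K-Mst1 and 7.03 ± 0.10 in Ntg (SD, n = 4 each). It was at 0.23 ± 0.15 in Mst1 against Ntg (limma adjusted p = 0.301), and without Mst1 1466 it rose by 0.44 (limma adjusted p = 0.00122). Slc11a2 rose by 0.21 ± 0.07 in Mst1 against Ntg on Bmp10-low arrays, which read 7.29, 7.31, 7.38 and 7.27 in Mst1 and 7.12, 7.08, 7.17 and 7.05 in Ntg (limma adjusted p = 0.0257). The 2 groups do not overlap there. On Bmp10-high arrays the difference was -0.02 ± 0.14 (limma adjusted p = 0.957). On the animals' means Slc11a2 was at 0.23 ± 0.08 in dnPI3K-Mst1 against dnPI3K (limma adjusted p = 0.0539).

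Storage and sensing genes stayed within narrow ranges. Fth1, the ferritin heavy chain that oxidises and stores iron, ran from 12.00 to 12.48, and both ends of that range were dnPI3K or dnPI3K-Mst1 arrays. Its largest difference from Ntg on the animals' means was -0.12 ± 0.06 in dnPI3K (limma adjusted p = 0.378). On Bmp10-high arrays of dnPI3K-Mst1 it read 12.28, 12.25, 12.18 and 12.26, all below the Bmp10-low arrays at 12.39, 12.48, 12.38 and 12.36. Ireb2, the gene of iron regulatory protein IRP2, ran from 7.78 to 8.37, and came nearest to a call on Bmp10-low arrays of dnPI3K-Mst1 at 0.21 ± 0.08 against Ntg (limma adjusted p = 0.0542). Aco1, the gene of IRP1, which is cytosolic aconitase when it holds an iron-sulphur cluster, ran from 7.55 to 8.30 and was at -0.16 ± 0.08 in Mst1 against Ntg (limma adjusted p = 0.132). None of these 3 genes was called in a comparison with Ntg, on the animals' means or in either class. Signals near the top of the scale, as for Fth1, may be compressed, which was not tested.

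Other genes of the pathway were read from lists, which like the members were chosen with earlier results known. Over all genes, 12.6% were higher and 14.2% lower in Mst1 against Ntg, 1.29% and 2.75% in dnPI3K, and 16.4% and 14.2% in dnPI3K-Mst1. Of 23 tested regulators of hepcidin 8 were higher and 4 lower in Mst1, 2 and 2 in dnPI3K, and 12 and 2 in dnPI3K-Mst1, with median differences of 0.13, 0.07 and 0.26 against medians of all genes of -0.001, -0.004 and 0.017. Hjv, the BMP co-receptor hemojuvelin, averaged 8.02 ± 0.11 in Mst1, 8.63 ± 0.22 in dnPI3K, 7.57 ± 0.21 in dnPI3K-Mst1 and 9.50 ± 0.14 in Ntg (SD, n = 4 each), and no transgenic animal reached the Ntg range. It fell by 1.48 ± 0.12 in Mst1 (limma adjusted p = 1.58e-08), fell by 0.87 ± 0.12 in dnPI3K (limma adjusted p = 0.000131) and fell by 1.93 ± 0.12 in dnPI3K-Mst1 (limma adjusted p = 3.73e-10). Unlike Hamp it had a small within-animal difference in Ntg, 0.08 ± 0.23.

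Bmp6, the BMP known to report liver iron to hepcidin, averaged 9.14 ± 0.43 in Mst1, 8.85 ± 0.22 in dnPI3K, 9.57 ± 0.19 in dnPI3K-Mst1 and 8.15 ± 0.08 in Ntg (SD, n = 4 each). It rose by 0.99 ± 0.16 in Mst1 (limma adjusted p = 7.95e-05), by 0.70 ± 0.16 in dnPI3K (limma adjusted p = 0.0147) and by 1.42 ± 0.16 in dnPI3K-Mst1 (limma adjusted p = 8.77e-07). The dnPI3K call was made on Bmp10-low arrays (1.02 ± 0.14, limma adjusted p = 0.000377) and not on Bmp10-high arrays, where Bmp6 averaged 8.56 ± 0.45 in dnPI3K and 8.18 ± 0.05 in Ntg. Bmp2 rose by 0.65 ± 0.21 in Mst1 (limma adjusted p = 0.0254) and by 1.06 ± 0.21 in dnPI3K-Mst1 (limma adjusted p = 0.000638), and averaged 5.40 ± 0.22 in dnPI3K and 5.42 ± 0.25 in Ntg. Neo1, the receptor neogenin, which binds hemojuvelin, fell by 0.65 ± 0.09 in Mst1 (limma adjusted p = 1.04e-05). In dnPI3K the other 2 calls were Stat3 at -0.40 ± 0.11 (limma adjusted p = 0.0491) and the interleukin 6 co-receptor Il6st at 0.38 ± 0.10 (limma adjusted p = 0.032).

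Smad6 and Smad7, inhibitors that BMP signalling itself induces, followed the Bmp10 classes in part as Hamp did. Smad7 was higher on the Bmp10-high array by 0.22 ± 0.35 in Mst1, 0.36 ± 0.18 in dnPI3K, 0.19 ± 0.11 in dnPI3K-Mst1 and 0.92 ± 0.07 in Ntg (SD, n = 4 each). That difference fell by 0.70 ± 0.14 in Mst1 (limma adjusted p = 0.0119) and fell by 0.72 ± 0.14 in dnPI3K-Mst1 (limma adjusted p = 0.00994) against Ntg. For Smad6 the difference was 0.756 ± 0.687 in Mst1, 0.870 ± 0.525 in dnPI3K, 0.216 ± 0.203 in dnPI3K-Mst1 and 1.223 ± 0.368 in Ntg (SD). It was called in no genotype against Ntg. On Bmp10-low arrays Smad7 rose in dnPI3K-Mst1 by 1.22 ± 0.11 (limma adjusted p = 2.75e-07) and Smad6 by 1.50 ± 0.20 (limma adjusted p = 1.24e-05), the class in which Hamp rose as well. Smad7 also rose in Mst1 on these arrays, by 0.83 ± 0.11 (limma adjusted p = 2.14e-05), where Hamp was not called (limma adjusted p = 0.148). On Bmp10-high arrays Smad7 averaged 9.29 ± 0.08 in dnPI3K-Mst1 and 8.79 ± 0.12 in Ntg (SD, n = 4 each), the opposite order to Hamp. Atoh8, a BMP target known to bind the hepcidin promoter, had a smaller within-animal difference in dnPI3K-Mst1 than in Ntg, by -0.80 ± 0.19 (limma adjusted p = 0.0495). These were 1 of 23 regulators called for the within-animal difference in Mst1 and 2 of 23 in dnPI3K-Mst1. Id1, on the same list, had mean differences of 0.42 in Mst1, 0.33 in dnPI3K, 0.24 in dnPI3K-Mst1 and 0.31 in Ntg. The part of BMP signalling in the Hamp differences was not tested.

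**Figure D5:**
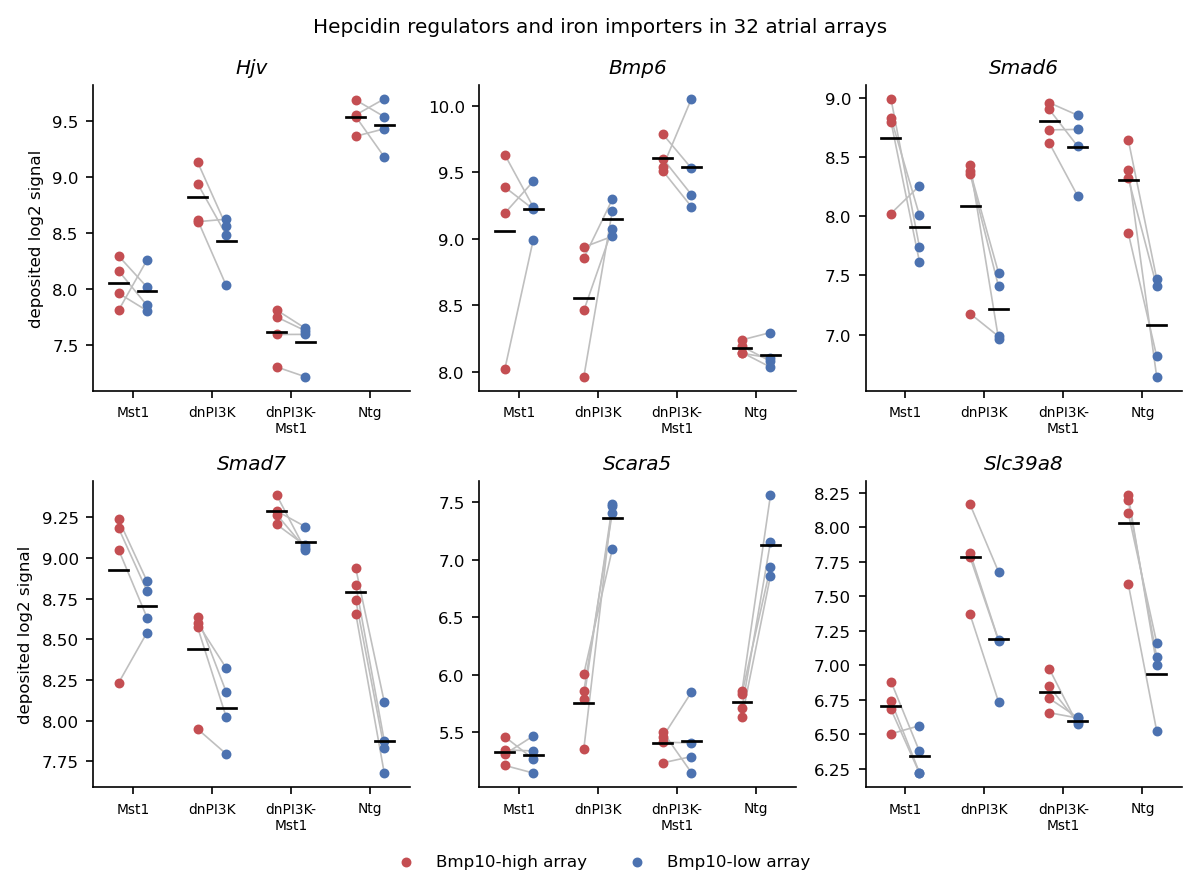
Deposited log2 signal (y axis, a separate scale per gene) of 4 hepcidin regulators and 2 iron importers by genotype (x axis), drawn as for the 9 iron genes: red for Bmp10-high, blue for Bmp10-low arrays, a grey line for 1 animal and a black bar for the mean. Scara5 means on Bmp10-low arrays are 5.30 in Mst1, 7.36 in dnPI3K, 5.42 in dnPI3K-Mst1 and 7.13 in Ntg.

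Of 16 tested genes of iron uptake, transport and export 2 were higher and 7 lower in Mst1 against Ntg, 1 and 0 in dnPI3K, and 4 and 3 in dnPI3K-Mst1. Scara5, a receptor for ferritin that is also a fibroblast gene, fell by 1.13 ± 0.10 in Mst1 (limma adjusted p = 6.87e-08) and fell by 1.03 ± 0.10 in dnPI3K-Mst1 (limma adjusted p = 1.55e-07). In dnPI3K and Ntg its Bmp10-low arrays were the brighter ones, with within-animal differences of -1.61 ± 0.43 and -1.37 ± 0.26 (SD, n = 4 each), while in Mst1 and dnPI3K-Mst1 these were 0.03 ± 0.15 and -0.02 ± 0.30. That difference rose by 1.40 ± 0.19 in Mst1 (limma adjusted p = 0.000208) and 1.35 ± 0.19 in dnPI3K-Mst1 against Ntg (limma adjusted p = 0.000279). None of the 8 fibroblast markers was lower in either comparison, where 14.2% of all genes were lower in each. Of these markers 2 were higher in Mst1 (12.6% of all genes) and 6 in dnPI3K-Mst1 (16.4%). The part of fibroblasts in the Scara5 differences was not tested. Slc39a8, the ZIP8 importer, fell by 0.96 ± 0.14 in Mst1 (limma adjusted p = 3.4e-05) and fell by 0.78 ± 0.14 in dnPI3K-Mst1 (limma adjusted p = 0.000273). Its within-animal difference, 1.09 ± 0.12 in Ntg, fell by 0.74 ± 0.14 in Mst1 (limma adjusted p = 0.00511) and fell by 0.88 ± 0.14 in dnPI3K-Mst1 (limma adjusted p = 0.000781). Ceruloplasmin, Cp, which oxidises iron as ferroportin releases it, rose by 0.67 ± 0.08 in dnPI3K (limma adjusted p = 7.54e-05) and 0.60 ± 0.08 in dnPI3K-Mst1 (limma adjusted p = 1.55e-05).

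Genes that use iron were mostly lower where they were called. Of all genes 12.6% were higher and 14.2% lower in Mst1 against Ntg, 1.29% and 2.75% in dnPI3K, and 16.4% and 14.2% in dnPI3K-Mst1. The counts that follow were not tested against these shares. Of 17 tested genes of iron-sulphur cluster assembly 0 were higher and 9 lower in Mst1, 0 and 1 in dnPI3K, and 0 and 11 in dnPI3K-Mst1, with medians of -0.28, -0.18 and -0.43. Nfs1, the cysteine desulphurase that starts the clusters, fell by 0.76 ± 0.09 in Mst1 (limma adjusted p = 3.06e-06) and fell by 0.90 ± 0.09 in dnPI3K-Mst1 (limma adjusted p = 2.94e-07). Of 19 tested genes of haem synthesis, breakdown and transport 2 were higher and 9 lower in Mst1, 1 and 2 in dnPI3K, and 3 and 9 in dnPI3K-Mst1. Alas1, which starts haem synthesis outside red cells, fell by 0.85 ± 0.14 in Mst1 (limma adjusted p = 7.93e-05) and fell by 0.83 ± 0.14 in dnPI3K-Mst1 (limma adjusted p = 9.32e-05). Alad, the next enzyme, fell in all 3 comparisons, with differences of -0.76 ± 0.09 in Mst1 (limma adjusted p = 2.42e-06), -0.39 ± 0.09 in dnPI3K (limma adjusted p = 0.0171) and -0.67 ± 0.09 in dnPI3K-Mst1 (limma adjusted p = 8.32e-06). Atrial myocyte markers also moved, with 6 of 10 lower in Mst1 and 8 of 10 lower and 1 higher in dnPI3K-Mst1, and their part in these differences was not tested.

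Of 7 tested genes of iron storage, iron chaperones and the control of IRP2 none was called by limma in Mst1 or dnPI3K. In dnPI3K-Mst1 the ferritin light chain Ftl1 rose by 0.37 ± 0.13 (limma adjusted p = 0.031). Sdhb, an iron-sulphur subunit of complex II, fell by 1.03 ± 0.09 in Mst1 (limma adjusted p = 1.03e-07) and fell by 1.20 ± 0.09 in dnPI3K-Mst1 (limma adjusted p = 1.23e-08). Epas1, the hypoxia-inducible factor HIF2 alpha, whose transcript carries an iron-responsive element, fell by 0.55 ± 0.12 in Mst1 (limma adjusted p = 0.00181).

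The genes most like Hamp over 32 arrays, by Pearson correlation of log2 signals among tested genes, were Lepr (0.78), Pilra (0.78), Smad9 (0.77), Adm (0.76) and Lrat (0.76), and the most opposed were Pi16 (-0.80), Cd248 (-0.76) and 2310002L09Rik (-0.73). Smad9 encodes a BMP-responsive SMAD and Lepr the leptin receptor. For Hamp2 they were Ntsr2 (0.80), Lrat (0.80), Bmp5 (0.79), Ncapd3 (0.76) and 2010204K13Rik (0.75). For Slc40a1 they were Ctsc (0.86), Rasgrp3 (0.81), P2ry13 (0.80), Klhl4 (0.80) and Fcna (0.80), and 0.80, 0.86, 0.76, 0.74 and 0.80 without its brightest array. Such likeness over arrays of the same animals and Bmp10 classes is a description.

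Hepatocytes are the main source of hepcidin, so their markers were read as well. Alb, albumin, had a median of 4.89 over 32 arrays but reached 9.51 on the Bmp10-high array of Mst1 1838, where Hamp was at 8.36, the highest of the 4 Bmp10-high Mst1 arrays. It also passed 8 on the Bmp10-high array of Ntg 1834 (8.57), where Hamp was at 11.02, and on no other array. The part of hepatocyte RNA in the hepcidin values was not tested. The list mean of 11 hepatocyte markers ran from 5.03 to 6.77 in Mst1, 4.93 to 5.49 in dnPI3K, 4.93 to 5.35 in dnPI3K-Mst1 and 5.09 to 5.96 in Ntg on Bmp10-high arrays. On Bmp10-low arrays it ran from 4.96 to 5.28 in Mst1, 4.96 to 5.13 in dnPI3K, 4.93 to 5.18 in dnPI3K-Mst1 and 4.90 to 5.35 in Ntg. The Bmp10-high array had the higher list mean in 14 of 16 animals, among them all 4 Ntg animals. The same held for macrophage and monocyte markers in 15 of 16 animals and for ventricular markers in 13 of 16. For erythroid, mesothelial and skeletal muscle markers it held in 7, 6 and 5 of 16. Of 2 tested erythroid markers 0 were called in Mst1 and 1, Alas2, was lower in dnPI3K-Mst1 against Ntg. Of 6 tested hepatocyte markers 1 was higher and 0 lower in Mst1 and in dnPI3K-Mst1 against Ntg. The hepatocyte list mean correlated with Hamp at 0.25 over 32 arrays, and the macrophage and monocyte mean at 0.40. Without Mst1 1838 and Ntg 1834 the within-animal difference of Hamp2 in Mst1 against Ntg was -1.66 and was not called (limma adjusted p = 0.0768). That of Hamp was then -1.67 in dnPI3K and not called (limma adjusted p = 0.169), but was still called lower in Mst1 (limma adjusted p = 0.00074) and in dnPI3K-Mst1 (limma adjusted p = 8.44e-05).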

How the data were processed

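Total RNA of the left and right atria of 16 mice (100 ng per sample) was hybridised to Affymetrix Mouse Gene 1.0 ST arrays, per the labels' protocols. The values used are log2 probe set signals as deposited by the authors, made with Affymetrix Expression Console and PLIER per the submitters' processing notes; scaling and background correction are not given in the sources used here. The base of the logarithm was inferred from their range, 1.16 to 14.08. Array medians lay between 5.51 and 5.68 log2, and no scaling was added. The brightest probe set stood for each of 19938 genes, and genes averaging under 4.48 log2 (percentile 30 over the array's probe sets) were dropped. Genotype, side and animal came from the labels, and classes from Bmp10 at a limit of 9 log2. Fits used limma 3.58.1 (lmFit, eBayes with a trend, two-sided, R 4.3.3) on each animal's mean, on the Bmp10-high minus Bmp10-low difference, or within a class, with Benjamini-Hochberg adjustment over 15219 genes and calls at an adjusted p under 0.05. Both arrays of an animal carry its number, and their residual correlation was 0.152. The fits on animals' means and on the within-animal difference were tested on simulated data, for Mst1 against Ntg. The fits within a class were not. Among 200 changed genes, changes of 0.5 log2 were recovered in 78% for the means and 12% for the difference. Changes of 1 log2 were recovered in 99.5% and 89.5%. The 9 members and the lists were chosen with earlier results of these data known. Besides the members, the text names up to 4 called genes of a list with the largest change, and the genes most correlated with Hamp, Hamp2 or Slc40a1. Promoters were aligned with Biopython 1.88. Alternatives covered the filter, scaling, probe set choice, variance model, array weights, side, class and leaving out animals.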

Additional observations from a re-analysis of the deposited data

Results flagged for a closer look

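In 14 cases a value stood out, 9 because 1 animal lay far from the other 3 of its group by Dixon's test, and 5 because the within-animal difference of a hepcidin gene differed between a transgenic genotype and Ntg. Chance marks about 1 in 20 groups, and 144 groups of 4 were examined. The within-animal difference between the Bmp10-high and Bmp10-low array was smaller than in Ntg by -3.32 (Mst1), -1.94 (dnPI3K) and -3.87 (dnPI3K-Mst1) for Hamp, and by -1.85 (Mst1) and -1.96 (dnPI3K-Mst1) for Hamp2.

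Mst1 1466 had the highest Slc40a1 animal mean of its group (5.96, against 5.58 to 5.62) and the lowest Ireb2, at 7.89 for the animal mean and 7.78 on its Bmp10-high array, which is the array farthest from all others. Its part in these values was not tested. Tfrc on Bmp10-low arrays was highest in dnPI3K-Mst1 1650, at 8.71 against 7.98 to 8.07. The Hamp2 within-animal difference of dnPI3K-Mst1 1649 was -0.35, against 0.18 to 0.21 in the other three, and the same animal was the only 1 of 16 in which Hamp was lower on the Bmp10-high array. Fth1 on Bmp10-high arrays was highest in Ntg 1301 (12.38, against 12.28 to 12.29), and Ireb2 on Bmp10-low arrays lowest in the same animal (7.93, against 8.08 to 8.09). The animal mean of Ireb2 was 8.15 in dnPI3K 1507, against 8.02 to 8.03, and the within-animal difference of Aco1 was 0.047 in Ntg 1657, against -0.120 to -0.095.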

How the results depend on the processing

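Signs of the hepcidin differences changed with the class of array. Only Hamp, in double transgenic mice against Ntg, was called in both classes with opposite signs. Hamp was at -1.65 in dnPI3K-Mst1 against Ntg and -0.88 against dnPI3K on Bmp10-high arrays only. On Bmp10-low arrays only, Hamp was at 0.75 and Hamp2 at 0.0346 in Mst1 against Ntg, Hamp2 at 0.47 in dnPI3K-Mst1 against Ntg, and Hamp2 at 0.0542 in dnPI3K-Mst1 against dnPI3K, as it was on arrays labelled right only. None of these differences on Bmp10-low arrays was called (limma adjusted p = 0.148, 0.919, 0.056 and 0.883, in the order given). No other called member changed sign. In Mst1 against Ntg, 2 members were called on left and 2 on right arrays (4 to 5 leaving out 1 animal). In dnPI3K against Ntg, 0 were called on right arrays, on Bmp10-high arrays and without the animals whose arrays stand apart. In dnPI3K-Mst1 against Ntg, 1 was called on left arrays, 0 on right and 1 with the animal as a random block. Against Mst1 it was 1 with no filter, centred arrays, quantile normalization, the mean of probe sets, no variance trend, left arrays, either class, the random block or without the animals with Alb over 8, 0 on right arrays and 4 with array weights (1 to 3 leaving out 1 animal). Against dnPI3K it was 4 with array weights, 0 on left or right arrays, 2 on Bmp10-high arrays and 2 without the animals that stand apart (0 to 3 leaving out 1 animal). Non-additivity gave 1, Hamp, with array weights. For the within-animal difference, dnPI3K gave 0 with no filter, quantile normalization, no variance trend, array weights or without either set of animals (0 to 1 leaving out 1 animal), and Mst1 gave 1 without the animals with Alb over 8. Leaving out 1 animal, members not overlapping between classes numbered 1 to 2 in Mst1 (2 without 1838 or 1839, where 13.9% and 10.6% of all genes did not overlap), 1 to 2 in dnPI3K-Mst1 (2 without 1509 or 1649, 8.5% and 9.98% of all genes) and 2 to 5 in Ntg (5 without 1301 or 1657, 13.7% and 13.5% of all genes). The cause of these changes was not tested. Calls over all genes moved with the setting as well, within the ranges given below. The share of all genes is not set beside each count of members called here, so those counts describe the members only. Both alternatives that leave out animals by how their arrays look were chosen after seeing the data. Over all genes the calls ran from 2131 to 5789 in Mst1 against Ntg (4084 as reported), 105 to 1013 in dnPI3K (616) and 2417 to 5803 in dnPI3K-Mst1 (4658), from 74 to 1686 in dnPI3K-Mst1 against Mst1 (532) and 1760 to 4260 against dnPI3K (3292), and from 0 to 358 for non-additivity (78). For the within-animal difference they ran from 94 to 794 in Mst1 (178), 2 to 37 in dnPI3K (19) and 102 to 482 in dnPI3K-Mst1 (152).

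The labelled right minus left comparison pairs the arrays of an animal. With no replicate block it called 0 members as well (Hamp at -0.78, limma adjusted p = 0.862) and 26 genes in place of 1.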
